A study of Mus musculus with 12 samples.

Results

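The 33 genes described here encode the enzymes and carriers that burn fatty acids in mitochondria. They cover the carnitine shuttle that brings acyl chains in, the 4 repeated reactions of β-oxidation, the electron transfer flavoproteins that pass the electrons on, the disposal of propionyl-CoA and the 2 pyruvate dehydrogenase kinases that are usually regulated with them. They were chosen by name and function, with no threshold on expression, but with earlier results of these data known. They make up 33 of the 55573 genes in the deposited count table. All 33 were found in the table and all passed the filter on low counts.

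The cells were fat cells formed in culture by stromal vascular cells, the non-adipocyte cells of fat, taken from mice of the C57BL/6 J background. Donors were wild-type (WT), or homozygous for a change of threonine 166 of PPARγ, the nuclear receptor that drives fat cell formation, to alanine (T166A, TA) or to aspartate (T166D, TD). Alanine cannot be phosphorylated, and aspartate is used to mimic phosphorylated threonine. The mutations were introduced by CRISPR-Cas9 into the germ line, so every cell of the culture carries them, and the controls came from WT littermates. The age and sex of the donors, and whether replicates came from separate mice or separate cultures, are not given in the sources used here, so the p-values measure the spread between these libraries only. All cultures received an adipogenic induction medium for 4 days (850 nM insulin, 1 nM triiodothyronine, 0.5 mM IBMX, dexamethasone and 125 nM indomethacin). They were then kept in maintenance medium with 850 nM insulin and 1 nM triiodothyronine and were harvested on day 8. Each genotype had 4 libraries, and the counts per library ran from 16553324 to 20324286.

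Fatty acids enter β-oxidation as acyl-CoA. In its liver and muscle forms, carnitine palmitoyltransferase 1 (CPT1), on the outer mitochondrial membrane, moves the acyl chain onto carnitine and is inhibited by malonyl-CoA, the building block of fatty acid synthesis. A carrier takes acylcarnitine across the inner membrane, CPT2 rebuilds acyl-CoA inside, and each round of β-oxidation then shortens the chain through a dehydrogenation, a hydration, another dehydrogenation and a thiolysis. White adipocytes mainly store fat and use this route little, whereas brown and beige adipocytes depend on it for heat, and several of its genes are classic PPAR targets.

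The letters below were shown because PPARγ binds DNA with its partner RXR at a direct repeat of AGGTCA. RefSeq promoter windows (GRCm38.p6, 250 bases before to 50 after a gene's start) were given for 27 of the 33 genes, 29 windows in all. The repeat with 1 base between its copies (DR1), searched on both strands, was in 0 of the 29 windows and in 0.0396% of 32851 windows genome-wide. With up to 2 mismatches it was in 4 of the 29 (13.8%), against 3.86% of all windows. Each match is printed in capitals with 8 bases on either side, on the strand that reads as the repeat.
Echs1 (chr7:140116484-140116512, minus strand, upstream of the annotated gene and within an intron of Paox): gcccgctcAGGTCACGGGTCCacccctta
Etfa (chr9:55512300-55512328, plus strand, upstream of the annotated gene): ttgggagtAGGGCAAAGGTAAgggtgtgc
Pcca (chr14:122534319-122534347, plus strand, across the annotated start into exon 1): cttgacgaGGGTGAGAGGTCAgcagccgg
Slc25a20 (chr9:108662134-108662162, plus strand, in the 5′ UTR of exon 1): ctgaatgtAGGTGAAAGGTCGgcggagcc
The 6-base AGGTCA alone, which these matches can contain, was in 7 of the 29 windows (24.1%), against 16.3% of all, and the 7 belonged to 6 genes, Acadm, Acadvl, Cpt1a, Cpt1c, Echs1 and Pcca. Such matches describe these windows only. Binding was not measured in these data, and enhancers farther from the start were not searched.

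A further stretch is shown because both subunits of the trifunctional protein, which are compared below as a pair, are transcribed from it in opposite directions. Hadha (chr5:30118304-30155162, minus strand) and Hadhb (chr5:30155248-30184593, plus strand) start 85 bases apart. The gap holds 2 matches to GGGCGG, printed in capitals, a motif found on either strand in the same number of bases before the start in 22.8% of all windows.
Hadha-Hadhb gap (chr5:30155163-30155247, plus strand): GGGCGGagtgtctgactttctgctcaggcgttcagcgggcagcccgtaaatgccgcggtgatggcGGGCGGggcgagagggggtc

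TD adipocytes had less RNA of nearly the whole pathway than WT adipocytes. Of the 33 genes, 28 were lower and 2 were higher (Cpt1a and Cpt1c) in edgeR's quasi-likelihood test at a Benjamini-Hochberg adjusted p under 0.05, where 14.2% of the 15117 genes tested were called lower and 15.1% higher. The other 3, Slc22a5, Acad9 and Acat1, did not pass. The median log2 fold change of the 33 genes was -0.58, a fall by 33.3%, beside 0.011 over all genes tested. In 29 of the 33 all 4 TD libraries lay below all 4 WT libraries, as they did for 16.4% of all genes tested. Without TD replicates 3 and 4, the libraries richest in muscle markers (an alternative chosen after seeing the data), 22 fell against WT and 11 against TA. The medians were -0.51 and -0.40. With these fewer libraries, 1516 and 634 of 15673 genes tested were called, 55.2% and 29.3% of them higher in TD.

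TA adipocytes kept most of these transcripts near the WT level. There 5 genes were lower (Slc22a5, Acadvl, Acad10, Acad12 and Pcca) and 1 was higher (Acaa2) than in WT, where 4.41% of all genes tested were called lower and 6.72% higher. All 4 TA libraries lay below all WT libraries for 3 genes and above them for 0, against 5.85% and 7.71% of all genes. The median of the 33 was -0.066 and that of all genes -0.0056. Between the mutants, 26 genes were lower in TD than in TA and 0 were higher, with backgrounds of 9.37% and 7.33%. DESeq2 also called 0 higher, and 27 of the 33 had an unadjusted p under 0.05, the 26 lower ones and Cpt1a, which was higher. The median log2 fold change was -0.46, beside 0.023 over all genes. Both mutants were compared with the same 4 WT libraries, so the comparisons are not independent of each other.

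**Figure D1:**
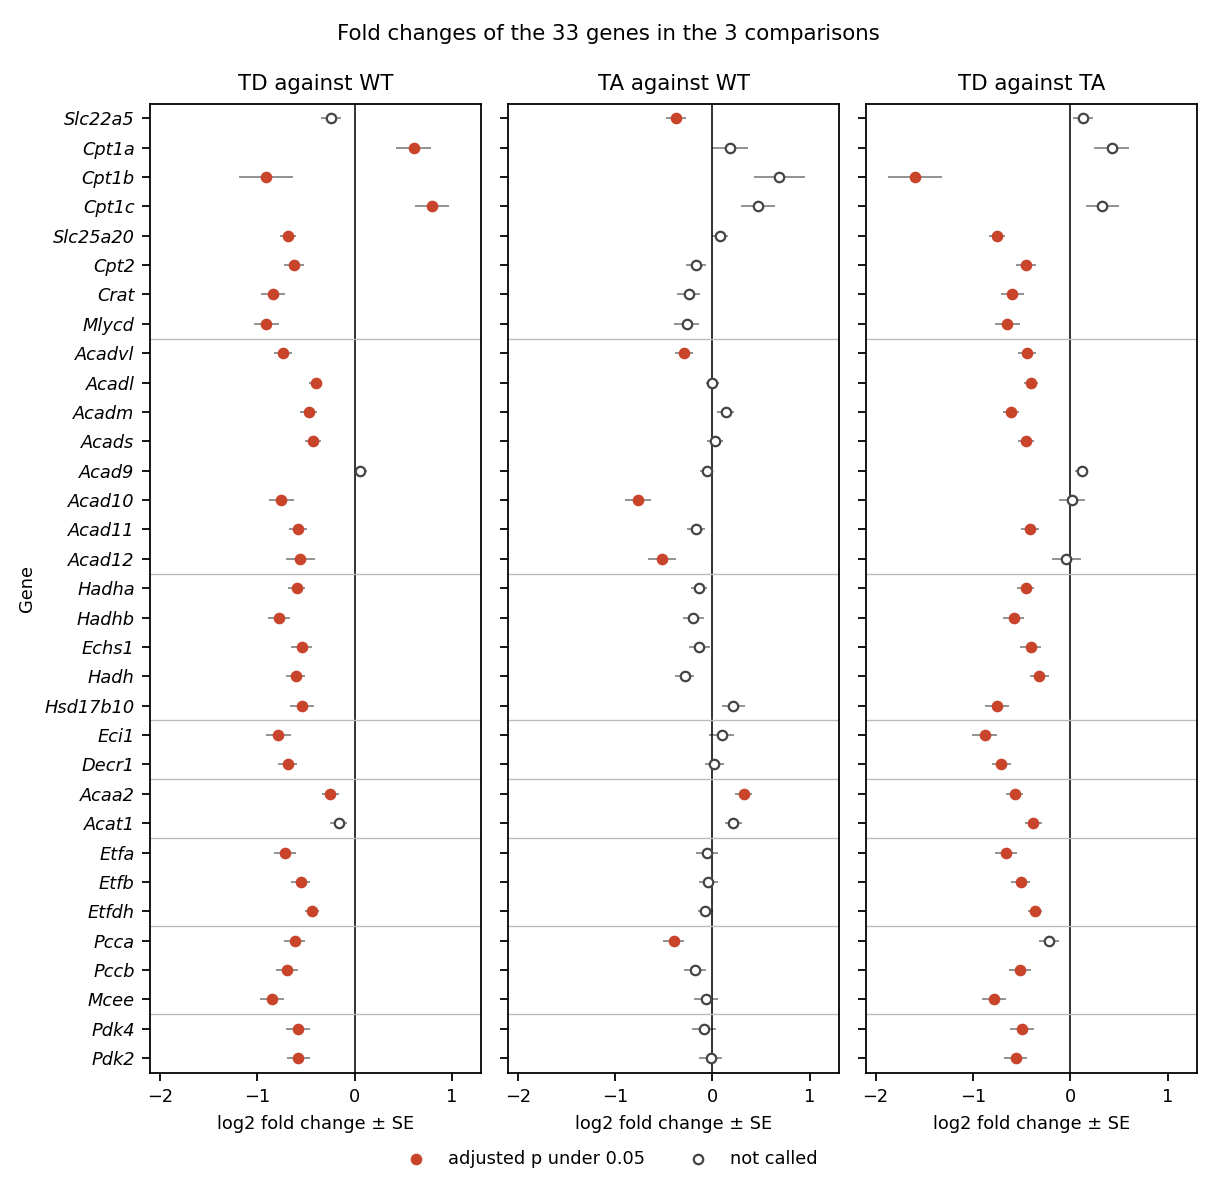
The log2 fold change of each of the 33 genes with its standard error, in TD against WT, TA against WT and TD against TA, with the genes ordered by reaction and grey lines between reactions. Filled points have an adjusted p under 0.05, and 28, 5 and 26 of them lie to the left of 0 in the 3 panels.

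Adipocyte marker RNA was also lower in the TD cultures, and its part in these falls was not tested. In bulk RNA, fewer adipocytes and less of a transcript per adipocyte cannot be told apart. The adipocyte markers were abundant in every library, so the labelled cell type was present, with 8 of 8 detected, but their summed level was 18710 to 21190 CPM (counts per 1000000, scaled by normalized library size) in WT, 17650 to 22150 in TA and 13110 to 15000 in TD. In TD 6 of the 8 were lower than in WT and 0 higher, with a median log2 fold change of -0.38. Markers of preadipocytes and fibroblasts summed to 10150 to 13500 CPM in WT, 11400 to 20420 in TA and 17590 to 25780 in TD, and 8 of 10 tested were higher in TD than in WT. They moved in TA too, where 6 of the 10 were higher than in WT and 0 lower, with a median log2 fold change of 0.54, beside 0.90 in TD. When libraries were scaled to the 8 adipocyte markers instead of to all genes, 8 of the 33 genes remained lower in TD than in WT. Another 5 were higher, and the median of the 33 was -0.11. Under that scaling 9234 of the 15117 genes tested were called, and 97.5% of these calls were higher in TD. That scaling moved the median of all genes by 0.48. The median of the 33 genes minus that of all genes was -0.60 under either scaling. A change of scaling shifts all genes nearly alike, so this difference could hardly change and tests nothing. The 8 genes that remained lower were Crat, Mlycd, Acadvl, Hadhb, Eci1, Etfa, Pccb and Mcee. Several adipocyte markers, Fabp4 and Cidec among them, are themselves PPARγ targets.

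Libraries of a genotype also differed as a block. Among the TA libraries, replicate 2 was the highest for 28 of the 33 genes and replicate 3 the lowest for 29. Replicate 2 had the highest summed adipocyte markers of the TA libraries (22150 CPM) and the lowest preadipocyte and fibroblast markers (11400), and replicate 3 the reverse (17650 and 20420). Among the TD libraries replicate 4 was the lowest for 26 genes, and it had the lowest adipocyte markers (13110) and the highest preadipocyte and fibroblast markers (25780). Marker sums and gene ranks did not always go together. TD replicate 2 was the highest for 17 genes and replicate 1 for 11. Yet replicate 1 had more adipocyte markers (15000 against 14870 CPM) and fewer preadipocyte and fibroblast markers (17590 against 19740). WT replicate 3 was the lowest WT library for 21 genes. It had the lowest adipocyte markers of WT (18710), but replicate 2 had more preadipocyte and fibroblast markers (13500 against 12430). The part of the markers in these ranks was not tested. Over the 33 genes the share of all counts was 0.592% ± 0.0366 (SD, n = 4) in WT, 0.561% ± 0.0584 in TA and 0.422% ± 0.0320 in TD.

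Levels per kilobase of the principal transcript, which allow genes to be compared, ranged widely in WT. Echs1 (266 CPM per kb), Etfa (247), Acadm (236), Acadl (199.5) and Hsd17b10 (193) were the highest. Apart from Cpt1b, whose level is uncertain, the lowest were Cpt1a (3.86), Cpt1c (4.80), Acad12 (6.87), Acad10 (7.23) and Slc22a5 (10.7), the last 3 of which share sequence with other genes. Both CPT1 isoforms that rose in TD were thus among the least expressed genes of the pathway. CPT2, the inner-membrane partner of CPT1, stood at 116 CPM per kb.

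In TD against WT the carnitine shuttle held the 2 largest falls, Cpt1b and Mlycd, and both rises. Its CPT1 isoforms are separate genes: Cpt1a (chr19:3322334-3385733) encodes the widely expressed liver form, Cpt1b (chr15:89416405-89425863) the form of muscle and brown fat, and Cpt1c (chr7:44959372-44974851) a form best known from neurons. Enzyme activity was not measured in these data, so a rise of Cpt1c RNA is no measure of entry into mitochondria. Their coding sequences differ enough for reads to be told apart, with 67.3% identical aligned bases between Cpt1a and Cpt1b, 62.1% between Cpt1a and Cpt1c and 62.7% between Cpt1b and Cpt1c. The 60 aligned coding bases most alike in the 3 isoforms are printed to show this, with the 19 positions at which they are not all equal in capitals.
Cpt1a (coding bases 666 to 725): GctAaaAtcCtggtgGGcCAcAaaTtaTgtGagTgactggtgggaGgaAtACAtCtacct
Cpt1b (coding bases 672 to 731): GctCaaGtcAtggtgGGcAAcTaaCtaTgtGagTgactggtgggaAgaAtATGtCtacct
Cpt1c (coding bases 666 to 725): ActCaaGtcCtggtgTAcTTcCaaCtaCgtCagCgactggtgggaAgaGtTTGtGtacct

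Cpt1a was 17.3, 16.59, 14.5 and 18.3 CPM in WT, 17.2, 12.4, 26.2 and 19.7 in TA and 20.27, 24.9, 23.8 and 32.7 in TD. All TD libraries lay above all WT libraries, and the TA libraries overlapped both. It was 52.3% higher in TD than in WT (log2 fold change 0.61, SE 0.18, edgeR adjusted p = 0.0191). TA against WT gave 0.18 (adjusted p = 0.598) and TD against TA 0.43 (adjusted p = 0.118), neither called. Cpt1c was 9.49, 18.03, 13.5 and 12.7 CPM in WT, 16.7, 13.8, 21.5 and 22.0 in TA and 20.8, 23.2, 26.8 and 22.2 in TD. It too had no overlap between TD and WT, and it was 73.3% higher in TD (log2 fold change 0.79, SE 0.17, edgeR adjusted p = 0.00298). TA lay between the other genotypes on average and differed from neither past the threshold (0.46 against WT, adjusted p = 0.102). The Cpt1a call against WT rested on single libraries: its log2 fold change was 0.55 without WT replicate 3 (adjusted p = 0.0561), 0.46 without TD replicate 4 (adjusted p = 0.0826) and 0.44 without TD replicates 3 and 4 (adjusted p = 0.205). Cpt1c in TD passed in all 17 alternative settings, with 0.71 (adjusted p = 0.0484) without TD replicates 3 and 4. In TA it passed without WT replicate 2 (0.64, adjusted p = 0.0231) or TA replicate 2 (0.58, adjusted p = 0.0334), and Cpt1a in TD against TA passed without TA replicate 3 (0.63, adjusted p = 0.0118).

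Cpt1b moved the other way. Its level was 2.65, 2.13, 2.33 and 2.30 CPM in WT, 3.86, 4.61, 2.28 and 4.45 in TA and 0.681, 1.24, 1.49 and 1.58 in TD. Every TD library was below every WT and TA library, and 3 of the TA libraries were above all WT libraries. The fall in TD was 46.8% against WT (log2 fold change -0.91, SE 0.28, edgeR adjusted p = 0.0226) and 67.0% against TA (-1.60, SE 0.28, adjusted p = 0.00112), the largest log2 difference of any of the 33 genes. TA against WT was 0.69 with an adjusted p of 0.102 and did not pass. Of its 3372 exonic bases, 2744 are shared with Gm44502, an annotated gene on the same strand with 0 counts, and how reads in the shared stretch were counted is not given in the sources used here, so its level is uncertain. Cpt1b is also a muscle gene, and muscle markers were measured in these cultures: their summed level was 9.96 to 32.2 CPM in WT, 29.5 to 112 in TA and 26.3 to 401 in TD, and 16 of 17 tested rose in TD against WT, with a median log2 fold change of 4.22. For TA against WT, 7 of the 17 rose and 0 fell, with a median of 2.59. On average TD had the lowest Cpt1b and the highest muscle marker sum. Without the 2 TD libraries richest in muscle markers, the Cpt1b difference from WT was -1.28 (edgeR adjusted p = 0.0389). The call against WT was lost without WT replicate 1 (-0.85, adjusted p = 0.0634) or TD replicate 1 (-0.71, adjusted p = 0.0636), and TA passed against WT without TA replicate 3 (0.87, adjusted p = 0.0312). The part of the muscle markers in these values was not tested.

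The count ratio of Cpt1b to Cpt1a within a library does not depend on how libraries are scaled. It was 0.154, 0.130, 0.162 and 0.127 in WT, 0.226, 0.375, 0.0880 and 0.227 in TA and 0.0350, 0.0509, 0.0637 and 0.0493 in TD. The TD ratios were below all others, by a log2 difference of -1.55 from WT and -2.06 from TA. TA minus WT was 0.51 (exact permutation p = 0.371, adjusted 0.507), with TA replicate 3 below every WT library.

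**Figure D2:**
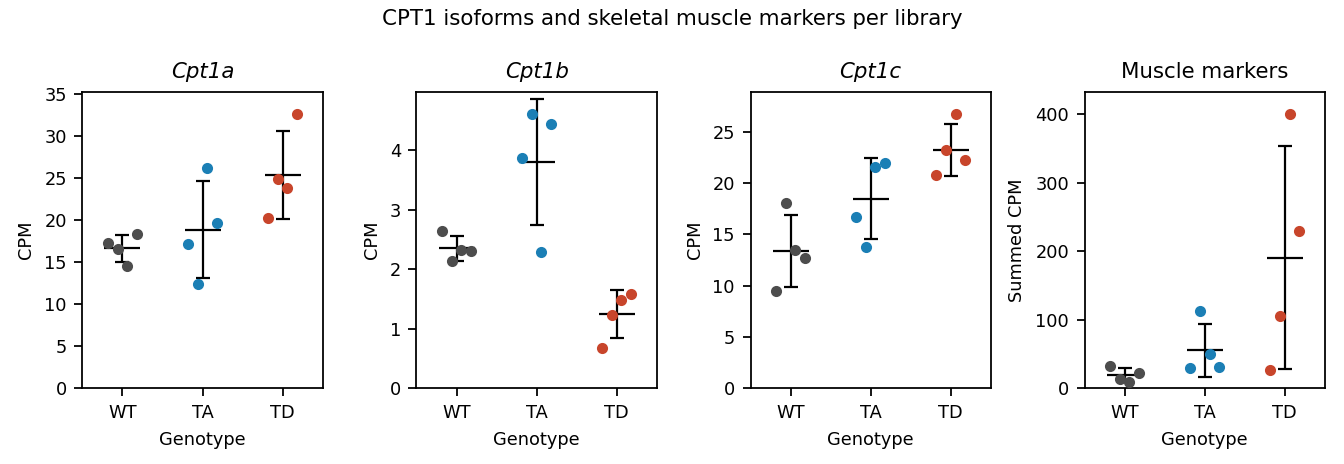
CPM of the 3 CPT1 isoforms and the summed CPM of the skeletal muscle markers in each library, with points for the 4 libraries of a genotype and bars for the mean ± SD. Cpt1a and Cpt1c were highest in TD, Cpt1b lowest in TD, and the muscle marker sum reached 401 in TD.

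The inner-membrane steps of the shuttle fell in TD. Slc25a20, the carnitine-acylcarnitine carrier of the inner membrane, was 94.7, 78.6, 77.6 and 94.8 CPM in WT, 90.6, 97.3, 85.0 and 90.8 in TA and 53.8, 54.2, 57.4 and 50.1 in TD. TD was separate from both other genotypes, which overlapped, and the fall was 37.6% against WT (log2 fold change -0.68, SE 0.082, edgeR adjusted p = 8.02e-05) and 40.8% against TA. Cpt2 was 296, 242, 236 and 324 CPM in WT, 230.1, 287, 214 and 248 in TA and 180.0, 180.1, 179.7 and 174 in TD, with the TD libraries below the rest and close to each other. It fell by 35.0% in TD (log2 fold change -0.62, adjusted p = 0.000534). Crat, the carnitine acetyltransferase that buffers acetyl-CoA, was 480.4, 389, 366 and 510.2 CPM in WT, 358, 444, 291 and 380.5 in TA and 260.1, 251, 239 and 226 in TD. All TD libraries again lay below all others, 44.1% lower than WT on average (log2 fold change -0.84, SE 0.12, adjusted p = 0.000209).

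Mlycd, malonyl-CoA decarboxylase, removes the inhibitor of CPT1. It was 67.1, 55.2, 55.5 and 58.5 CPM in WT, 46.4, 58.5, 34.6 and 57.5 in TA and 32.2, 33.5, 29.6 and 30.5 in TD. TD was separate from WT and TA, and the fall of 46.7% (log2 fold change -0.91, SE 0.13, edgeR adjusted p = 0.000193) was the largest in TD against WT apart from that of Cpt1b. Acacb and Acaca make malonyl-CoA. Acacb, the mitochondrial form, had a log2 fold change of -0.93 in TD (adjusted p = 0.000193) and -0.61 in TA (0.00665), whereas Acaca, the lipogenic form, was unresolved in TD (0.11, 0.53) and rose in TA (0.86, 0.000217). Slc22a5, the plasma membrane carnitine transporter OCTN2, was 32.8 ± 2.08 CPM (SD, n = 4) in WT, 25.3 ± 4.08 in TA and 27.7 ± 1.39 in TD. It was lower in TA than in WT (log2 fold change -0.37, adjusted p = 0.0255) with overlapping libraries, and in TD it was -0.24 (adjusted p = 0.0823). Of its 75-base sequences 17.1% also occur in Slc22a21, so its count is less certain. The TA call was lost without WT replicate 1 (adjusted p = 0.0806), WT replicate 2 (0.0502), TA replicate 1 (0.0837) or TA replicate 3 (0.0734).

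The acyl-CoA dehydrogenases open each round and are graded by chain length. In TD 7 of 8 were lower than in WT and 0 higher, with a median log2 fold change of -0.52, and in TA 3 were lower. The very-long-chain enzyme Acadvl was 333, 314, 322 and 336 CPM in WT, 250.2, 309, 239 and 266 in TA and 212, 213, 183 and 174 in TD. Genotypes formed 3 steps with no overlap between any of them. TD was 40.0% below WT (log2 fold change -0.74, SE 0.090, edgeR adjusted p = 8.18e-05) and 26.6% below TA (adjusted p = 0.00324), and TA was 18.3% below WT (adjusted p = 0.0438), a call lost in 9 of 16 alternative settings, among them leaving out any WT library (adjusted p from 0.0582 to 0.1) or TA replicate 1, 3 or 4 (0.114, 0.112 and 0.063). Acadvl overlaps Dvl2 on the opposite strand over 1151 of 2686 exonic bases, with mean counts of 4820 and 379 for the 2 genes.

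The medium-, long- and short-chain enzymes were not called in TA against WT. Acadm, the medium-chain enzyme, was 516, 482, 458 and 477 CPM in WT, 536, 602, 511 and 474 in TA and 369, 379, 324 and 320.2 in TD. TD lay below all other libraries, 28.0% under WT (log2 fold change -0.47, adjusted p = 0.000835) and 34.4% under TA (-0.61, 0.000228), and TA and WT overlapped. Acadl was 382 ± 18.7 CPM in WT, 382 ± 28.9 in TA and 289 ± 5.72 in TD, a log2 fold change of -0.40 in TD against WT (adjusted p = 0.000671) and -0.0004 in TA against WT. Acads was 106 ± 5.47, 108 ± 12.5 and 78.7 ± 4.18 CPM and changed by -0.42 in TD (adjusted p = 0.00132). When libraries were scaled to adipocyte markers, TD against WT became 0.081 for Acadl, 0.0028 for Acadm and 0.056 for Acads, none of them called.

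Acad10 and Acad12 were low in both mutants. Acad10 was 31.3, 23.3, 26.5 and 29.5 CPM in WT, 16.4, 19.1, 12.7 and 16.8 in TA and 19.6, 14.7, 16.2 and 15.1 in TD. All mutant libraries lay below all WT libraries and the mutants overlapped. The log2 fold change was -0.75 in TD (SE 0.13, edgeR adjusted p = 0.000645) and -0.77 in TA (SE 0.13, adjusted p = 0.00119), and TD against TA was 0.015 (adjusted p = 0.955). The TA call held in all 16 alternative settings. Acad12 was 29.7, 26.3, 22.0 and 28.7 CPM in WT, 16.9, 24.7, 14.6 and 18.3 in TA and 20.2, 18.4, 14.5 and 19.2 in TD, with no overlap between TD and WT and an overlap between TA and WT through TA replicate 2. It was lower in TD (-0.56, adjusted p = 0.00976) and in TA (-0.52, adjusted p = 0.0323). The TA call was lost without WT replicate 1 (adjusted p = 0.0939), 2 (0.0547) or 4 (0.0829) or TA replicate 1 (0.0916), 3 (0.0881) or 4 (0.0614), and the TD call without TD replicates 3 and 4. The 2 genes are neighbours on chromosome 5 (Acad10 at chr5:121621026-121660514 and Acad12 at chr5:121596775-121618938, both minus strand) and share 701 75-base sequences, 11.4% of those of Acad10, so their counts are less certain. Acad11, which handles long chains and 4-hydroxy acids, was 157, 144, 148 and 175 CPM in WT, 139.6, 161, 116 and 138 in TA and 110.0, 111, 99.3 and 96.5 in TD. TD was separate from WT and TA and 33.2% lower than WT (log2 fold change -0.58, adjusted p = 0.000398).

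Acad9 stood apart from the other dehydrogenases. It is best known as an assembly factor of respiratory complex I rather than as an oxidation enzyme. It was 57.8, 53.7, 56.3 and 60.7 CPM in WT, 53.5, 59.5, 52.9 and 53.6 in TA and 57.1, 59.9, 60.9 and 60.04 in TD. All genotypes overlapped, and its log2 fold changes were 0.059 in TD against WT (SE 0.066, edgeR adjusted p = 0.541), -0.058 for TA minus WT and 0.12 for TD minus TA. Other annotated genes, pseudogenes among them, share 10.6% of its 75-base sequences.

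**Figure D3:**
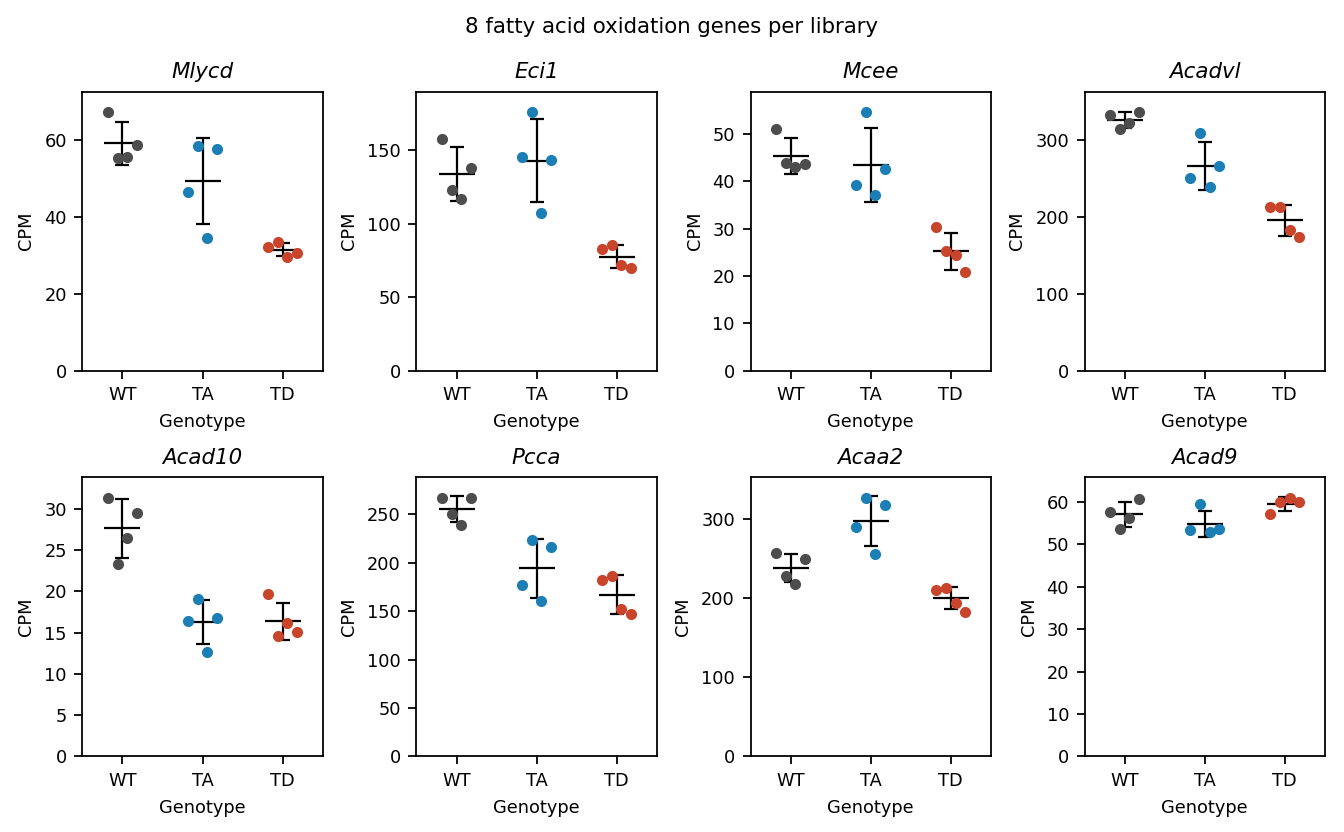
CPM of 8 genes in each library, with points for the 4 libraries of a genotype and bars for the mean ± SD. Mlycd, Eci1 and Mcee were low in TD only, Acadvl stepped down from WT to TA to TD, Acad10 and Pcca were low in both mutants, Acaa2 was high in TA and low in TD, and Acad9 overlapped throughout.

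Counted with both subunits of the trifunctional protein, the hydratases and 3-hydroxyacyl-CoA dehydrogenases were lower in TD in 5 of 5 cases against WT. Against TA 5 of 5 were also lower in TD, and 0 of 5 were called in TA against WT. The mitochondrial trifunctional protein joins hydratase, dehydrogenase and thiolase for long chains. Its α subunit Hadha was 416, 388, 370.5 and 404 CPM in WT, 351, 425, 322 and 337 in TA and 272, 273, 259 and 242 in TD. Its β subunit Hadhb was 106, 93.2, 91.8 and 106 CPM in WT, 88.8, 107, 70.3 and 80.1 in TA and 62.1, 61.3, 58.0 and 49.5 in TD. For both genes TD lay below WT and TA, and TA overlapped WT. Hadha fell by 33.8% in TD (log2 fold change -0.60, SE 0.086, edgeR adjusted p = 0.000203) and Hadhb by 41.8% (-0.78, SE 0.11, adjusted p = 0.000189). Although they start from the same gap, printed above, the log2 ratio of Hadha to Hadhb counts was 0.19 higher in TD than in WT, with 3.92, 4.17, 4.04 and 3.83 Hadha counts per Hadhb count in WT and 4.37, 4.45, 4.46 and 4.88 in TD. The TA libraries, at 3.95, 3.98, 4.57 and 4.21, overlapped both. In the exact permutation test the adjusted p was 0.0714 for TD against WT and 0.214 for TD against TA. The pseudogene Gm13910 shares most of the 16.7% of 75-base sequences of Hadhb that occur elsewhere.

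Among the soluble enzymes, Hadh, the medium- and short-chain dehydrogenase, was 278, 245, 220.4 and 278 CPM in WT, 209, 238, 182 and 209 in TA and 174, 185, 162 and 150.0 in TD. TD was separate from WT, by 34.2% (log2 fold change -0.60, SE 0.097, edgeR adjusted p = 0.000385), but TD and TA overlapped and their difference (-0.32, adjusted p = 0.0335) was lost in 7 of 17 alternative settings, among them leaving out TA replicate 1, 2 or 4 (adjusted p = 0.0693, 0.127 and 0.0653) or TD replicate 3 or 4 (0.0914 and 0.114). Hsd17b10, which also serves isoleucine breakdown and mitochondrial tRNA processing, was 206, 183, 164 and 189 CPM in WT, 205, 254, 171 and 231 in TA and 143, 141, 119 and 106 in TD. It fell by 31.2% in TD against WT and by 40.7% against TA (log2 fold change -0.75, SE 0.12, adjusted p = 0.000565). Echs1, the short-chain enoyl-CoA hydratase, was 415 ± 38.8 CPM in WT, 377 ± 60.2 in TA and 284 ± 27.5 in TD, and fell by 31.5% in TD against WT (adjusted p = 0.00162). Its call in TD against TA (-0.41, adjusted p = 0.0176) was lost without TA replicate 2 (0.0729), TD replicate 3 (0.055) or TD replicate 4 (0.0672).

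Unsaturated chains need isomerases and reductases to stay on the pathway. Eci1, the Δ3,Δ2-enoyl-CoA isomerase, was 158, 123, 117 and 138 CPM in WT, 145, 176, 107 and 144 in TA and 83.0, 85.5, 72.2 and 70.1 in TD. Decr1, the 2,4-dienoyl-CoA reductase, was 194, 158, 164 and 173 CPM in WT, 163, 209, 158 and 168 in TA and 112, 113, 106 and 95.3 in TD. In both genes all TD libraries were below all WT and TA libraries, and TA overlapped WT. Eci1 fell by 42.0% against WT (log2 fold change -0.78, SE 0.13, edgeR adjusted p = 0.000419) and 45.6% against TA. Decr1 fell by 37.9% (-0.69, SE 0.095, adjusted p = 0.000164) and 38.8%.

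Thiolases release acetyl-CoA. Acaa2 and Acat1, the 2 grouped here, had a median log2 fold change of -0.21 in TD, the closest to 0 among the groups. The trifunctional protein, which also holds a thiolase, was grouped with the hydratases and dehydrogenases above, and its subunit Hadhb fell further (-0.78). Acaa2, the medium-chain thiolase, was 256, 227, 218 and 249 CPM in WT, 289.7, 326, 255 and 317 in TA and 209.8, 212, 194 and 183 in TD. TD lay below WT, TA lay above it on average with 1 TA library inside the WT range, and TD and TA did not overlap. It was the only one of the 33 genes called in opposite directions in the 2 mutants, with log2 fold changes of -0.25 in TD (SE 0.087, edgeR adjusted p = 0.0399) and 0.32 in TA (SE 0.087, adjusted p = 0.0246), and the difference between the mutants was -0.57 (adjusted p = 0.000409). The TD call was lost without WT replicate 1 (adjusted p = 0.124), WT replicate 4 (0.0986), TD replicate 3 (0.0992) or TD replicate 4 (0.127), and scaled to adipocyte markers the value was 0.23 (adjusted p = 0.0176). The TA call was lost without WT replicate 2 (0.0629), WT replicate 3 (0.083), TA replicate 2 (0.0618) or TA replicate 4 (0.0659). Acat1, the acetoacetyl-CoA thiolase shared with ketone metabolism, was 225 ± 19.3 CPM in WT, 261 ± 30.4 in TA and 201 ± 11.4 in TD. It was not called against WT in either mutant (-0.16, adjusted p = 0.18, and 0.21, adjusted p = 0.141) but was 23.1% lower in TD than in TA (adjusted p = 0.00913).

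Electrons of the acyl-CoA dehydrogenases pass to the electron transfer flavoprotein (ETF) and from it, through ETF-ubiquinone oxidoreductase, to the respiratory chain. Its α subunit Etfa was 377, 331, 305 and 365 CPM in WT, 293, 400.1, 287 and 345 in TA and 237, 219, 202 and 181 in TD. Its β subunit Etfb was 64.1, 50.2, 52.2 and 60.3 CPM in WT, 53.9, 56.8, 50.1 and 59.2 in TA and 42.4, 42.0, 37.8 and 32.2 in TD. TD was below WT and TA in both, and TA did not differ from WT past the threshold. Etfa fell by 39.1% (log2 fold change -0.71, SE 0.11, edgeR adjusted p = 0.000322) and Etfb by 31.9% (-0.55, SE 0.099, adjusted p = 0.000775). There were 5.87, 6.58, 5.84 and 6.06 Etfa counts per Etfb count in WT and 5.60, 5.21, 5.34 and 5.61 in TD, a log2 difference of -0.16. The range of the TA libraries, at 5.425, 7.04, 5.725 and 5.83, overlapped both. In the exact permutation test the adjusted p was 0.0714 for TD against WT and 0.214 for TD against TA. Etfb shares 617 of 1164 exonic bases with Gm45233, a same-strand gene with a mean of 3.17 counts, so its level is uncertain. Etfdh, the oxidoreductase, was 190.1 ± 11.2 CPM in WT, 181 ± 11.5 in TA and 140.4 ± 10.5 in TD and fell by 26.1% (adjusted p = 0.000562). The 9 other genes tested of the flavoprotein branch gave 6 lower and 0 higher in TD against WT and 0 called in TA.

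Propionyl-CoA from odd chains and branched amino acids is carboxylated by an enzyme of α and β subunits and epimerized by Mcee. The α subunit Pcca was 267, 251, 239.5 and 267 CPM in WT, 177, 224, 161 and 216 in TA and 182, 186, 152 and 148 in TD. Its β subunit Pccb was 288, 256, 240.0 and 276 CPM in WT, 222, 277, 184 and 254 in TA and 183, 166, 159 and 146 in TD. Mcee was 51.0, 43.8, 42.9 and 43.7 CPM in WT, 39.2, 54.5, 37.1 and 42.6 in TA and 30.3, 25.3, 24.3 and 20.8 in TD. All 3 were separate between TD and WT. Pcca was also separate between TA and WT, whereas Pccb and Mcee overlapped there. Pcca fell by 34.7% in TD (log2 fold change -0.61, SE 0.11, edgeR adjusted p = 0.00061) and by 24.1% in TA (-0.40, SE 0.11, adjusted p = 0.0228). Pccb fell by 38.3% in TD (-0.70, adjusted p = 0.000345) and Mcee by 44.5% (-0.85, SE 0.12, adjusted p = 0.000209). The ratio of Pcca to Pccb was 0.928, 0.978, 0.998 and 0.966 in WT, 0.797, 0.809, 0.872 and 0.850 in TA and 0.998, 1.12, 0.958 and 1.01 in TD. All TA libraries were below all WT and TD libraries, with a log2 difference of -0.22 for TA minus WT and 0.29 for TD minus TA. The call of Pcca in TA was lost without WT replicate 1 (adjusted p = 0.0627), WT replicate 4 (0.059), TA replicate 1 (0.0732) or TA replicate 3 (0.0602).

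Pyruvate dehydrogenase kinases switch mitochondria from pyruvate to fatty acids, and Pdk4 is a known target of PPARs. Pdk4 was 151, 110.5, 140.0 and 153 CPM in WT, 132, 161, 103 and 126 in TA and 96.2, 98.7, 95.05 and 80.0 in TD. Pdk2 was 119.5, 95.4, 102 and 112 CPM in WT, 97.9, 129.5, 79.9 and 117 in TA and 73.0, 77.3, 70.6 and 66.4 in TD. Both were below WT and TA in every TD library. Pdk4 fell by 33.3% (log2 fold change -0.58, SE 0.12, edgeR adjusted p = 0.00256) and Pdk2 fell alongside (-0.58, SE 0.12, adjusted p = 0.00202), and their log2 ratio was 0.36 ± 0.12 (SD, n = 4) in WT, 0.31 ± 0.15 in TA and 0.36 ± 0.070 in TD. For Pdk4 the call in TD against TA was lost without TA replicate 2 (adjusted p = 0.0528) or TD replicate 4 (0.0512).

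Across 15 tests of 5 such ratios in 3 comparisons, tested two-sided over every permutation of the 8 libraries compared (exact), 6 reached the smallest p the design allows (0.0286): Cpt1b to Cpt1a in TD against WT and TA, Hadha to Hadhb and Etfa to Etfb in TD against WT, and Pcca to Pccb for TA against WT and for TA against TD. Adjusted over the 15 tests these p-values were 0.0714, so none passed 0.05.

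The threshold sorted the 33 genes into patterns of calls, and a gene not called may still differ. In 23 of them TD was lower than both WT and TA with no call between TA and WT. Over all genes tested, 14.2% were called lower in TD against WT and 9.37% in TD against TA, and the share with both calls was not counted. Acad10, Acad12 and Pcca were lower in both mutants with no call between them, Acadvl was lower in both and lower in TD than in TA, Acaa2 was higher in TA and lower in TD, Cpt1a and Cpt1c were higher in TD than in WT, Slc22a5 was lower only in the test of TA against WT, Acat1 only in that of TD against TA, and Acad9 was called nowhere. By mean level the order was WT, TA, TD from high to low in 19 genes and TA, WT, TD in 9. Neighbours in these orders were often not told apart, as 27 of the 33 genes were not called between TA and WT, where 10 had an unadjusted p under 0.05. Hadh (-0.29, edgeR adjusted p = 0.0697) was not called in TA and Acadvl (-0.29, adjusted p = 0.0438) was, so similar changes can fall in different patterns.

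All 17 citric acid cycle enzymes, which burn the acetyl-CoA, fell in TD against WT (median log2 fold change -0.54), and 15 of 20 peroxisomal oxidation enzymes were lower and 0 higher (median -0.40, the largest fall Acox2 at -2.17, from 1.91 to 0.415 CPM). Acyl-CoA synthetases, which activate fatty acids before entry, gave 0 lower and 0 higher of 4 tested by edgeR (median -0.044, 1 with an unadjusted p under 0.05, and a largest change of -0.30 for Acsl1, adjusted p = 0.112). In TA Acsl1 was higher than in WT (0.64, adjusted p = 0.00649). Other mitochondrial acyl-CoA enzymes gave 9 lower and 2 higher of 17 in TD. The largest fall was that of the thioesterase Acot2, at -0.85 in TD and -1.14 in TA.

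Of 10 regulators of these genes tested, 6 fell and 0 rose in TD against WT. Pparg, which carries the mutation, was 373, 331, 344.5 and 368 CPM in WT, 352.5, 428, 322 and 391.5 in TA and 258, 257, 223.5 and 210.1 in TD. TD was separate from both (log2 fold change -0.58 against WT, edgeR adjusted p = 0.000429). Ppara, the receptor that drives these genes in liver, was 7.47, 10.7, 12.2 and 10.2 CPM in WT, 10.2, 13.4, 8.24 and 10.0 in TA and 6.59, 5.01, 7.13 and 6.10 in TD (-0.71 against WT, adjusted p = 0.00678). Ppargc1a, the coactivator PGC-1α, was 11.8, 11.9, 10.6 and 10.9 CPM in WT, 19.4, 15.1, 15.5 and 14.8 in TA and 8.57, 9.65, 9.26 and 9.32 in TD. It rose in TA (0.52, adjusted p = 0.00533), and in TD the log2 fold change was -0.29 (adjusted p = 0.0576). The largest fall of the list was that of Ppargc1b, at -0.77 in TD and -0.97 in TA.

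**Figure D4:**
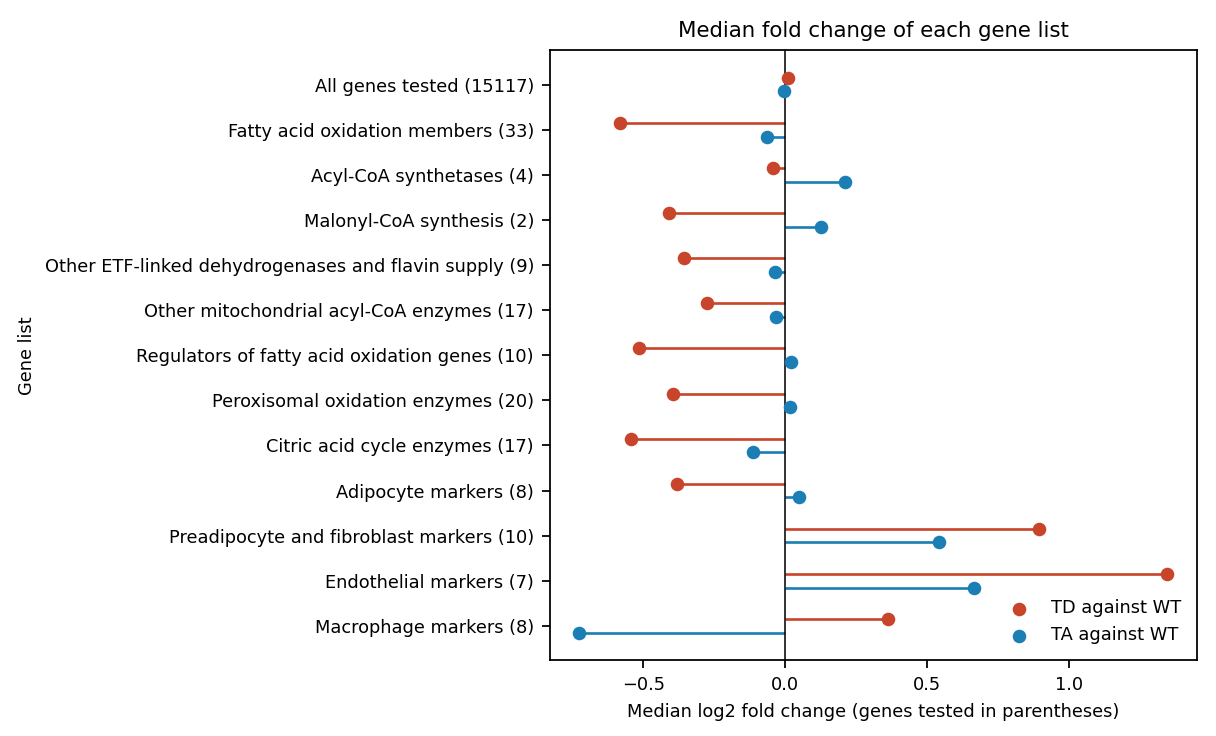
The median log2 fold change of each gene list in TD against WT (red) and TA against WT (blue), with the number of genes tested in parentheses and skeletal muscle markers left out because their median of 4.22 lies off the scale. The 33 genes (-0.58), the citric acid cycle (-0.54) and the regulators (-0.52) had the lowest medians in TD, and in TA these 3 stood at -0.066, -0.11 and 0.019.

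Other markers also moved with genotype, and their part in the results above was not tested. Endothelial markers summed to 26.6 to 56.7 CPM in WT, 48.9 to 88.6 in TA and 103 to 129 in TD, with 6 of 7 higher in TD than in WT. For TA against WT, 3 of the 7 were higher and 0 lower. Macrophage markers summed to 272 to 797 CPM in WT, 133 to 580 in TA and 612 to 854 in TD. In TD against WT, 0 of 8 were called by edgeR (2 with an unadjusted p under 0.05). In TD against TA, 3 of the 8 were higher and 0 lower, and all 8 had an unadjusted p under 0.05. TA against WT gave 0 called, but all 8 had a negative log2 fold change, 4 with an unadjusted p under 0.05. Transcripts encoded by mitochondrial DNA made up 4.92 to 5.88% of counts in WT, 2.74 to 4.50% in TA and 2.86 to 3.57% in TD, with every mutant library below every WT library.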

How the data were processed

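RNA-seq libraries of cultured adipocytes from 12 samples (WT, TA and TD, n = 4 each) were used. The values are raw gene counts deposited by the authors, whose processing notes name bcl2fastq 2.17.1.14, cutadapt 1.9.1, HISAT2 2.0.1, HTSeq 0.6.1 and mouse genome GRCm38. Strandedness and the treatment of ambiguous reads are not given in the sources used here. The deposited table equalled the library files in 12 of 12 cases. Genes were kept with edgeR's filterByExpr (minimum count 10, minimum total 15), leaving 15117 of 55573.

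Counts were TMM-normalized and fitted with edgeR 4.0.16 (quasi-likelihood, R 4.3.3) over all 3 genotypes, with Benjamini-Hochberg adjustment over all genes tested and a threshold of 0.05. TMM factors ran from 0.957 to 1.04 and the common biological coefficient of variation was 12.9%. CPM use normalized library sizes. Count ratios within a library had 0.5 added to each count and were tested two-sided over every permutation of libraries (exact). On simulated counts for TD against WT (14919 genes), 78% of 1.5-fold and 96% of 2-fold changes were called. The changes were put into 100 genes at each fold, drawn from well-counted genes, and 5.95% of the calls were unchanged genes. In the data 29.2% of genes were called, so these shares do not carry over to them, nor to genes with few counts such as Cpt1b. DESeq2 1.42.0, other scalings, other filters, fits of 2 genotypes, a replicate block and leaving out each library were alternatives. Gene positions and overlaps came from GENCODE M21, promoter windows from RefSeq GRCm38.p6. All 33 genes are accounted for. Per-library values are given for those called with an absolute log2 fold change of at least 0.58, the CPT1 isoforms and the ratio pairs, and Acad12, Acaa2 and Acad9 were added after their values were seen. The 33 genes and the lists were chosen with earlier results of these data known. Values of some single genes of the lists are not reported here.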

Additional observations from a re-analysis of the deposited data

Results flagged for a closer look

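Of 114 groups of 4 libraries tested for a value far from the others by Dixon's criterion, 6 held one, and chance flags about 1 in 20. Slc22a5 stood at 29.81 CPM in TD replicate 2, with the others between 26.91 and 27.14. Cpt2 was 174.2 CPM in TD replicate 4, with the others between 179.7 and 180.1. In TA replicate 2 Acadl was 425.2 CPM (others 363.6 to 370.4) and Acad9 59.47 CPM (others 52.88 to 53.57), in the library that was the highest of TA for 28 of the 33 genes. Etfdh was 206.8 CPM in WT replicate 4 (others 183.6 to 185.8), and Mcee 51 CPM in WT replicate 1 (others 42.91 to 43.8).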

How the results depend on the processing

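The falls in TD kept their direction under other tools and filters, and the counts of the 33 genes lower in TD stayed between 27 and 29 against WT and between 25 and 26 against TA for DESeq2, its size factors, library totals, either filter and fits of the 2 genotypes. Library totals gave 1 gene higher in TD than in TA. Without a filter 2 were higher in TD than in TA and 2 in TA than in WT. Fits of only the 2 genotypes gave 3 lower and 0 higher in TA against WT. Calls that were higher made up 51.5% (TD against WT) and 43.9% (TD against TA) of all calls, 64.6% and 64.7% by library totals, and 54.3% in TD against TA without a filter. The next alternatives were chosen after seeing the data. Without the 2 TD libraries highest in muscle markers, 1 gene was higher in TD than in WT and 11 were lower than in TA, with 1516 and 634 of all genes called, where fewer libraries entered. Scaled to adipocyte markers, TD against WT gave 8 lower, 5 higher, a median of -0.11 and 9234 genes called. TA against WT gave 2 lower, 3 higher and 879 called. TD against TA gave 7 lower, 6 higher, a median of -0.070 and 6890 called. Under this scaling 97.5%, 74.7% and 96.0% of all calls in these comparisons were higher. There the sign turned in TD against WT for Acadl (0.081), Acadm (0.0028), Acads (0.056), Acaa2 (0.23) and Etfdh (0.039), and in TD against TA for Hadh (0.067), Acat1 (0.013) and Etfdh (0.014). The cause was not tested. Leaving out 1 library at a time gave 1 to 7 genes lower and 0 to 2 higher in TA against WT, 1 to 2 higher in TD against WT, 0 to 1 higher in TD against TA, and 1422 to 3526 genes called in TD against TA. Cpt1a in TA against WT was -0.019 once TA replicate 3 was left out and 0.33 with TA replicate 2 left out instead. The log2 ratio of Etfa to Etfb ran from -0.10 to 0.021 in TA against WT, and that of Pdk4 to Pdk2 from -0.054 to 0.029 in TD against WT, -0.11 to 0.0094 in TA against WT and -0.012 to 0.10 in TD against TA. Same-numbered libraries did not clearly deviate together (12 correlations from -0.237 to 0.196, 2 over 0.1, and 3 best with their own number). No label says that the numbers mark a shared litter, batch or day, and such weak correlations cannot exclude it. With a replicate block 28, 5 and 26 genes were lower and 2, 1 and 0 higher in the 3 comparisons. Sign flips over pairs allow no p under 0.125.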
